A study of Mus musculus with 6 samples.

Results

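Histone genes were followed as a family in lung buds of E11.5 mouse embryos, DKO against control. The members were the genes whose symbol in the platform's probe annotation is that of a linker histone H1, a core histone H2A, H2B, H3 or H4, or one of their variants, and that have a probe naming no other gene. This gave 35 genes of 19938 measured, read from 36 probes, with the brighter of the probes taken for H2az1, the 1 member that has several. Of the 35 genes, 27 lie in the histone clusters formerly called Hist1 (23 genes) and Hist2 (4 genes) and were classed as replication-dependent. The class rests on the gene symbol alone. It therefore also holds testis genes such as H1f6 and the variant gene H2bc21, whose dependence on replication was not tested. The other 8 genes were classed as replication-independent or variant. The symbols Macroh2a1 and Macroh2a2 are spelled otherwise than the rule requires and were not members.

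The DKO group was 3 arrays from lungs of genotype Shhcre with both Hdac1 and Hdac2 floxed on both alleles, and the control group was 3 arrays from lungs of genotype Shhcre, so both groups carried the Cre allele. Shhcre expresses Cre recombinase from the Sonic hedgehog locus, which in the lung is active in the epithelium, so the mesenchyme, vessels and blood of the same buds are not its targets. The strain background is given as C57BL/6 with 129X1 and 129S1 for both groups. The titles call the arrays of each group biological replicates, and how many embryos went into each sample is not stated. Gene expression was measured on Affymetrix MoGene 1.1 ST arrays from 100 ng of total RNA, copied from an oligo(dT) primer.

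Chromatin is wound on octamers of the core histones H2A, H2B, H3 and H4 and closed by the linker histone H1, and Hdac1 and Hdac2 encode enzymes that remove acetyl groups from histone tails. Replication-dependent histone genes are switched on in S phase, have no introns, and yield mRNAs that end in a stem-loop bound by Slbp in place of a poly(A) tail. Variant genes such as those for H2A.Z and H3.3 are transcribed outside S phase as well and yield ordinary polyadenylated mRNAs. Priming with oligo(dT) favours polyadenylated RNA, and its part in the values of the replication-dependent genes was not tested.

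One histone gene stood apart from all the others. H3c15, which encodes the replication-dependent histone H3.2, fell 1.88-fold in the DKO buds, and the changes of the other 34 members lay between -0.15 and 0.38 on the log2 scale, with none past the threshold, an adjusted p under 0.05 over all 19938 genes. The stretch before its start is shown here beside those of H3c4, a replication-dependent H3 gene of the Hist1 cluster, and H2bc18, an H2B gene of the same Hist2 cluster as H3c15, as examples chosen after the stretches were seen, because theirs hold the motifs described for histone promoters. Each line gives the 250 bases before the start of the gene, 5′ to 3′ on the gene's strand, from RefSeq (build GRCm38.p6). Capitals mark a match on either strand to any of the motifs searched: the CCAAT box, the TATAAA box, and the octamer ATTTGCAT known from H2B promoters.
H3c15 (chr3:96239128-96239377, minus strand): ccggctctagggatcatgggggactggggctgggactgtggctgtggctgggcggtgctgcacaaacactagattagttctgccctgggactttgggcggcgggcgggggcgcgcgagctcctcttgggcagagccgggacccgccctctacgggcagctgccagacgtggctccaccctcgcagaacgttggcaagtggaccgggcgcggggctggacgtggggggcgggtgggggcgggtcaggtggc
H3c4 (chr13:23575513-23575762, plus strand): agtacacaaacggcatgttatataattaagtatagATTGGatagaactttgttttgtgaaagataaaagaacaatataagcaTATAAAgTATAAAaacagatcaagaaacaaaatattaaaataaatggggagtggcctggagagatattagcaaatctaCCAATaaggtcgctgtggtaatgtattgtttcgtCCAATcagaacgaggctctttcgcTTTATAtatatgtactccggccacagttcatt
H2bc18 (chr3:96269450-96269699, plus strand): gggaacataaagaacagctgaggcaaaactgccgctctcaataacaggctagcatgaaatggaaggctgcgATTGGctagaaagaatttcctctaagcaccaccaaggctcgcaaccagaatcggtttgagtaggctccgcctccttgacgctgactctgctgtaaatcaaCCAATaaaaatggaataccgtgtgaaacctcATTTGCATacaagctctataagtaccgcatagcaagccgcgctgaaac
The H3c15 stretch held none of the 3 motifs, and 71.2% of its bases were G or C. The H3c4 stretch held CCAAT at 3 places and TATAAA at 3 places with 32.8% G or C, and the H2bc18 stretch held CCAAT at 2 places and the octamer at 1 place with 47.2% G or C. Among the other 22 replication-dependent members with a sequence, the share of G or C ran between 32.4% and 56.8%. Neither feature was particular to H3c15 among all members: H4c8, a replication-dependent gene with a log2 change of 0.07, and the linker histone genes H1f7 and H1f10 also held none of the 3 motifs, and H2az1 (71.2%), H1f10 (75.2%) and H3f3a (77.2%) were as rich in G or C or richer. The full H3c15 window of the RefSeq table, which runs past the 250 bases printed, was nearly a copy of that of H3c14. H3c14 is its neighbour in the Hist2 cluster, and 284 of 285 aligned bases were identical. H3c14 had no probe of its own.

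Sequences were found for 30 of the 35 members; H2ax, H2bc4, H2bc21, H3c7 and H4c14 had none. CCAAT, searched on both strands, was present in 24 of the 30 stretches (80.0%), against 34.5% of the 27025 genes of the table. TATAAA was present in 14 of the 30 (46.7%), against 3504 of the 27025 genes, and all 14 were replication-dependent genes. The octamer ATTTGCAT was present in 5 of 7 H2B stretches and in 3 of 4 replication-dependent H2A stretches, against 1.61% of all genes. Some of these are the same DNA read from both sides. The full windows of the sequence table run past the 250 bases searched. Those of H2ac8 and H2bc8 share 279 bases, and those of H2ac1 and H2bc1 share 220 bases. None of these motifs contains another. A match here is a description and not a binding site.

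The log2 level of H3c15 was 7.19, 7.05 and 6.59 in DKO buds 1 to 3, against 8.06, 7.80 and 7.70 in control buds 1 to 3. All DKO values lay below all control values, and DKO 3 was the lowest. The means were 6.94 ± 0.31 in DKO and 7.85 ± 0.18 in control (SD, n = 3 each). The log2 change, DKO minus control, was -0.91 (SE 0.15, 95% interval -1.24 to -0.58, limma adjusted p = 0.0144). The DKO mean lies below 7.03, the level under which the dimmest 30% of genes average, and with no detection calls in the files the DKO values may sit near background, so the fold is uncertain. Over all genes limma called 2.41% (481 of 19938, 206 higher and 275 lower in DKO), and over the histone genes it called 1 of 35, or 2.86%, a share near that of all genes. Falls alone were 1.38% of all genes and rises 1.03%, against 1 and 0 of the 35. H3c15 missed the threshold when control 1 was left out (adjusted p = 0.0700), when control 2 was left out (0.0623) and when all probes of the array were fitted together (0.102), and its adjusted p lay between 0.000292 and 0.102 over all alternatives.

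The fall of H3c15 was seen on 1 probe, which the annotation ties to a single cDNA clone. A further 10 probes list H3c15 together with 11 other replication-dependent H3 genes, and their log2 changes lay between -0.01 and 0.01. Their 95% intervals lay between -0.11 and 0.11. The shared probe that also lists the cDNA clone of the H3c15 probe read 14.04, 14.04 and 14.08 in DKO 1 to 3, against 14.06, 14.05 and 14.03 in control 1 to 3, a log2 change of 0.01 (SE 0.04, adjusted p = 0.977 over all probes). The values of both groups overlapped there. A probe that sums many H3 genes would show little of a change in 1 of them, so the shared probes do not test the H3c15 change.

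The neighbours of H3c15 in the Hist2 cluster showed no change past the threshold. H2bc21, next to it in the RefSeq gene order, encodes H2BE, an H2B variant known from olfactory neurons of the mouse. Its level was 7.29, 7.34 and 7.54 in DKO 1 to 3, against 7.54, 7.56 and 7.52 in control 1 to 3, so that DKO 1 and 2 were lower and DKO 3 lay among the controls (log2 change -0.15, SE 0.07, adjusted p = 0.420). H4c14, an H4 gene, stood at 0.09 (SE 0.06, adjusted p = 0.616), and H2bc18, whose upstream stretch is printed above, at 0.00 (SE 0.06, adjusted p = 0.988). Of the 8 protein-coding genes on either side of H3c15, 10 had a probe of their own, and their changes lay between -0.15 and 0.09, with none past the threshold.

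**Figure D1:**
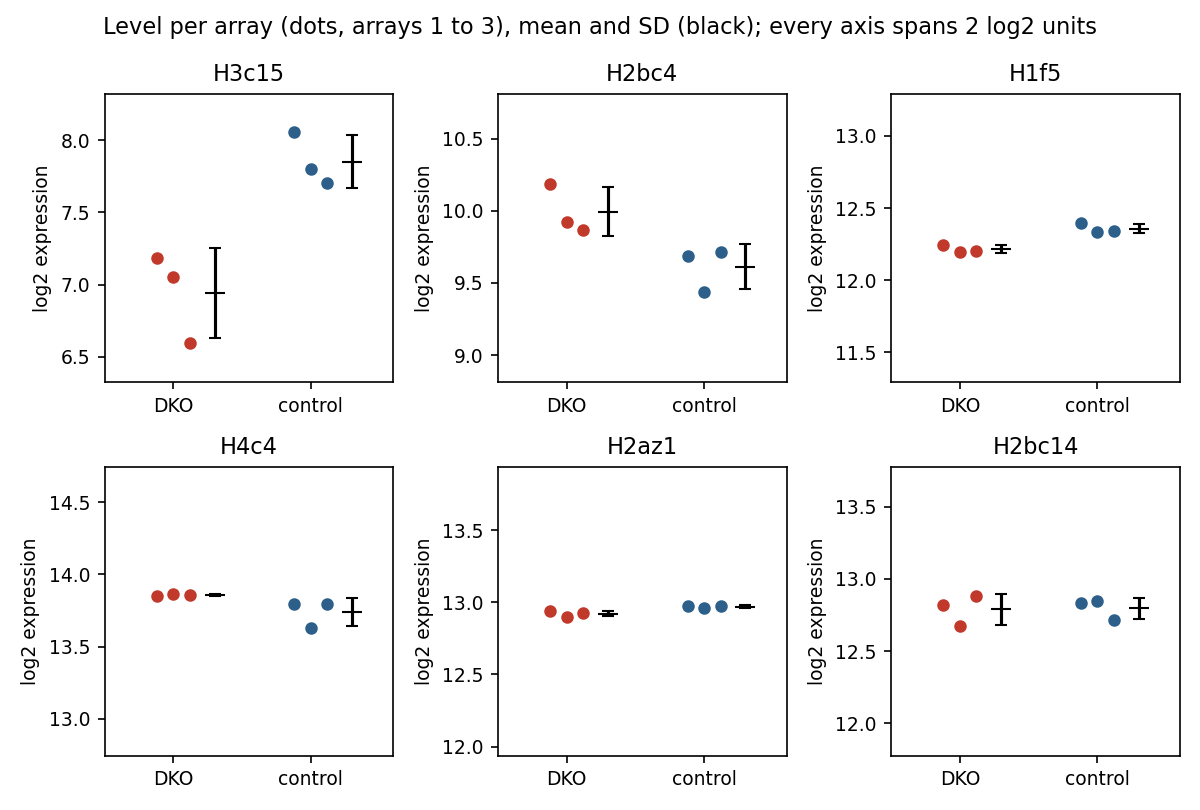
Log2 expression of 6 histone genes on each array, with DKO left of control in each panel. Dots are arrays 1 to 3, and black marks are the mean and SD of the group, on axes that all span 2 log2 units. The 3 DKO values of H3c15 lie below its 3 control values, while the values of H2bc14 overlap.

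In whole buds, fewer cells of a type and less RNA per cell cannot be told apart. All 10 markers of the lung epithelium had DKO values below all control values, against 10.4% of all genes. Of the 10, 8 passed the threshold as falls, against 1.38% of all genes. The largest falls were those of Rab25 (-0.89), Krt18 (-0.86) and Foxa1 (-0.69). Cdh1 (-0.22) and Nkx2-1 (-0.19) did not pass. The summed linear level of the 10 markers was 7862 to 8994 in DKO, against 11935 to 12850 in control, and none was below a log2 value of 7.61. Without any 1 array between 6 and 8 of the 10 passed. Of 4 smooth muscle markers, 4 fell, with a summed linear level of 4008 to 4979 in DKO, against 5721 to 6544 in control. Without control 1, 2 and 3 only 2, 0 and 0 of these 4 passed, and without DKO 3 only 1 passed. The part of these cells in the H3c15 change was not tested. Of 4 heart muscle markers limma called 1, Myl7, which rose, against rises in 1.03% of all genes. Of the 24 markers of mesenchyme, endothelium, erythroid cells, leukocytes and germ cells limma called 0, against 2.41% of all genes. Of these 24, 7 had an unadjusted p under 0.05, against 12.8% of all genes. They were 3 of 4 leukocyte markers, lower in DKO (Csf1r -0.21, Tyrobp -0.30 and Laptm5 -0.21), and 4 markers that were higher. The higher ones were the erythroid Gata1 (0.27) and Hbb-bh1 (0.26) and the endothelial Tek (0.20) and Cdh5 (0.20). Of the targeted genes, Hdac1 read 11.20, 11.23 and 11.23 in DKO 1 to 3, against 11.48, 11.49 and 11.52 in control 1 to 3 (log2 change -0.28, SE 0.05, adjusted p = 0.0193), and Hdac2 stood at -0.04 (SE 0.06, adjusted p = 0.845). The Hdac1 result missed the threshold when control 1, 2 or 3 was left out (adjusted p = 0.0883, 0.0932 and 0.112), when DKO 1 or 3 was left out (0.0517 and 0.0643), and with all probes fitted together (0.0644). A probe outside the floxed exons checks no genotype, and the probes' positions were not used here.

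The linker histones came to 8 genes, and none of them passed the threshold. H1f5, which encodes the replication-dependent H1.5, read 12.25, 12.19 and 12.20 in DKO 1 to 3, against 12.39, 12.33 and 12.34 in control 1 to 3. All DKO values lay below all control values, by a small margin. Its log2 change was -0.14 (SE 0.05, interval -0.25 to -0.03), with an unadjusted limma p of 0.0166 and an adjusted p of 0.225. Over the alternatives the adjusted p lay between 0.0337, with array weights, and 0.582. H1f3, which encodes H1.3, had values of 7.23, 7.26 and 7.31 in DKO, against 7.54, 7.26 and 7.38 in control, with DKO 3 above the lowest control (-0.13, SE 0.07). H1f1, which encodes H1.1, stood at -0.08 (SE 0.05) and H1f2, which encodes H1.2, at 0.11 (SE 0.08). The median over the 5 replication-dependent H1 genes, which include the testis H1 gene H1f6 (0.06), was -0.08. Of the replication-independent ones, H1f10, a linker histone of somatic cells, stood at -0.09 (SE 0.07), the spermatid gene H1f7 at 0.06 (SE 0.06) and the oocyte gene H1f8 at 0.05 (SE 0.08).

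No H2A gene passed the threshold. The 4 replication-dependent H2A genes had changes between -0.03 and 0.11. H2ac8 read 6.71, 5.99 and 6.31 in DKO 1 to 3, against 6.26, 6.18 and 6.25 in control 1 to 3. Its DKO values enclosed the controls, with DKO 1 highest and DKO 2 lowest (SD 0.36 in DKO and 0.04 in control), so its change of 0.11 (SE 0.15) had an interval as wide as -0.22 to 0.44. H2ac4 had the same order among its DKO values, 10.22, 9.71 and 9.96, against 9.92, 9.70 and 9.97 in control (0.10, SE 0.12). H2ac15 stood at 0.01 (SE 0.05) and H2ac1, the testis H2A gene, at -0.03 (SE 0.08).

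None of the 4 H2A variants passed the threshold, with changes between -0.07 and 0.03. H2az1, which encodes H2A.Z, a variant found at promoters, read 12.94, 12.90 and 12.92 in DKO 1 to 3, against 12.97, 12.96 and 12.97 in control 1 to 3. The groups did not overlap, but the change was -0.05 (SE 0.05, interval -0.15 to 0.06, adjusted p = 0.778). Its second probe gave -0.04. H2az2, which encodes the second H2A.Z protein, stood at -0.07 (SE 0.07). H2ax, whose protein is phosphorylated at DNA breaks, stood at -0.02 (SE 0.05), and the variant gene H2aj at 0.03 (SE 0.06).

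Among the 9 H2B genes, H2bc4 had the largest change. Its level was 10.19, 9.92 and 9.87 in DKO 1 to 3, against 9.69, 9.44 and 9.72 in control 1 to 3. All DKO values lay above all control values. The log2 change of 0.38 (SE 0.10, interval 0.15 to 0.61), or 1.30-fold, had an unadjusted p of 0.00423 and missed the threshold after adjustment (limma adjusted p = 0.107). It passed with an intensity trend in the variance model (adjusted p = 0.0391) and otherwise lay between 0.0504 and 0.332 over the alternatives. A further 7 probes list H2bc4 with many other H2B genes, and their changes lay between -0.01 and 0.03. The 9 genes with their own probe among the 8 on either side of H2bc4 lay between -0.13 and 0.12, with none past the threshold.

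The other 8 H2B genes lay between -0.15 and 0.10. H2bc14 read 12.82, 12.67 and 12.88 in DKO 1 to 3, against 12.83, 12.85 and 12.72 in control 1 to 3, and the groups overlapped (-0.01, SE 0.07, interval -0.16 to 0.15). H2bc22 stood at -0.05 (SE 0.06), and H2bc1, the testis H2B gene, at 0.05 (SE 0.07). In all 9 H2B genes the SD over the DKO arrays exceeded that over the control arrays.

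The other members of the H3 group showed no change past the threshold. H3c4 read 8.62, 8.43 and 8.42 in DKO 1 to 3, against 8.43, 8.39 and 8.37 in control 1 to 3, with DKO 1 above the rest (0.09, SE 0.06, adjusted p = 0.658). H3c7 stood at 0.02 (SE 0.07). H3f3a, which encodes H3.3, the variant laid down outside replication, read 7.05, 6.97 and 7.07 on its own probe in DKO 1 to 3, against 6.92, 6.92 and 7.06 in control 1 to 3 (0.06, SE 0.06, adjusted p = 0.760). A further 6 probes are shared between H3f3a or its sister gene H3f3b and 1 other symbol each, with changes between -0.04 and 0.03. These shared probes read between 11.91 and 12.86, far above the own probe of H3f3a. That own probe is among the dimmest 30% of genes and may sit near background.

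Of the 6 H4 genes, 5 had a change above 0 and none passed the threshold. H4c4 read 13.85, 13.86 and 13.86 in DKO 1 to 3, against 13.79, 13.63 and 13.79 in control 1 to 3. The DKO values lay above the controls, of which control 2 was the lowest (0.12, SE 0.06, adjusted p = 0.469). H4c6 read 12.20, 11.97 and 12.13 in DKO 1 to 3, against 12.02, 11.95 and 11.91 in control 1 to 3, with DKO 2 among the controls (0.14, SE 0.07, adjusted p = 0.456). H4c3 pointed the other way at 10.71, 10.36 and 10.36 in DKO 1 to 3, against 10.66, 10.51 and 10.65 in control 1 to 3 (-0.13, SE 0.10, adjusted p = 0.686). H4c8, H4c9 and H4c14 stood at 0.07, 0.04 and 0.09. The 6 shared H4 probes lay between -0.01 and 0.05.

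**Figure D2:**
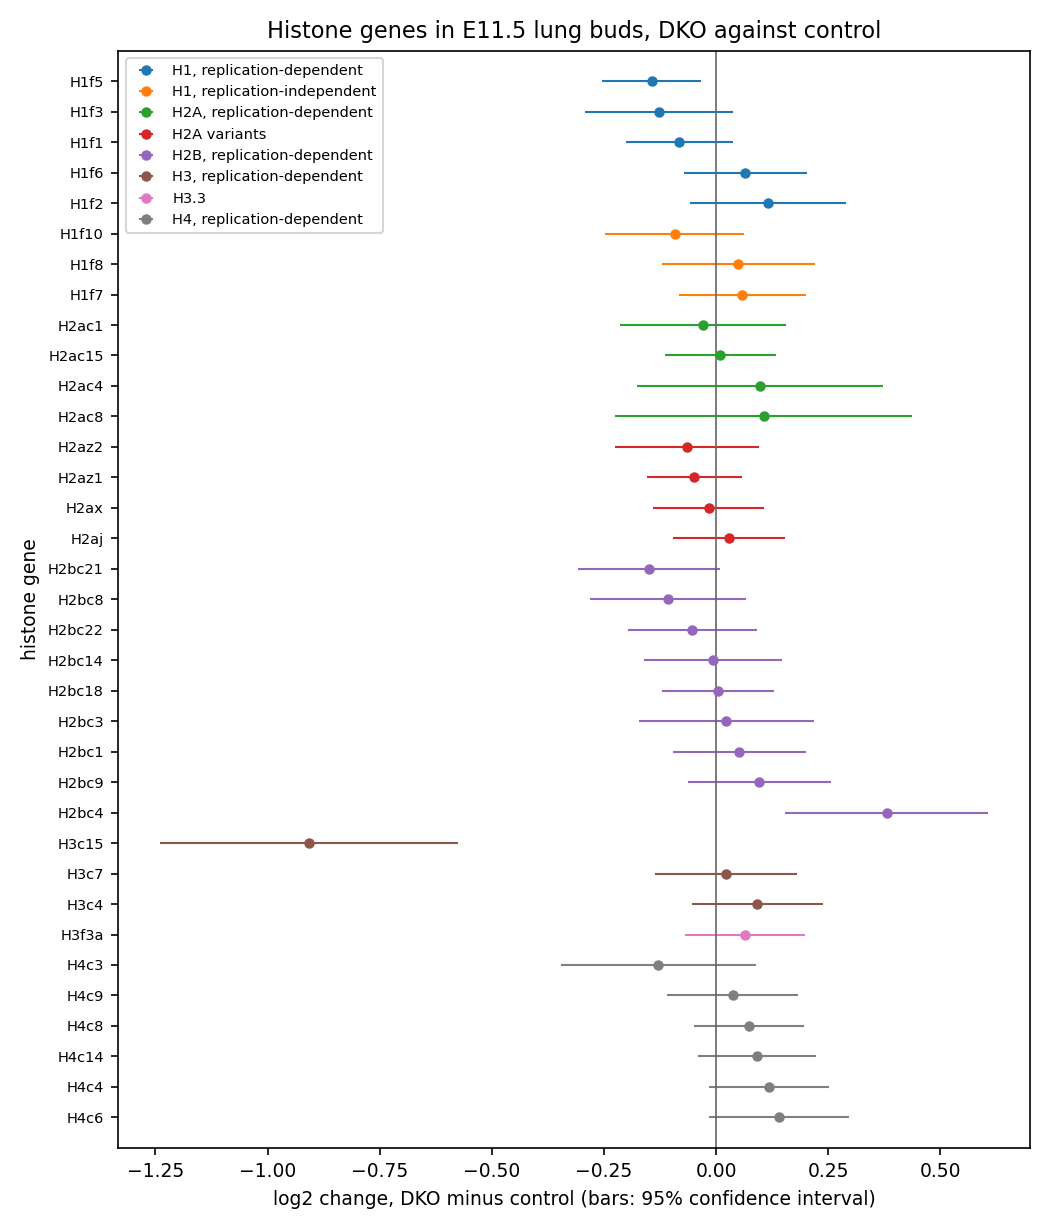
Log2 change of the 35 histone genes, DKO minus control, with 95% confidence intervals from limma, grouped and coloured by class. H3c15 lies at -0.91 and H2bc4 at 0.38, and the other 33 genes lie between -0.15 and 0.14.

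Of the 35 members, 30 had a 95% interval that stayed within 0.32 log2 units of no change, against 17436 of all 19938 genes. An interval inside a 1.5-fold change in either direction was found for 33 members, against 19611 of all 19938 genes. The 2 exceptions at 1.5-fold were H3c15 and H2bc4. The DKO and control values did not overlap in 5 of 35 members, against 18.8% of all genes. DKO lay above control in 2 of them, H2bc4 and H4c4 (8.36% of all genes), and below it in 3, H3c15, H1f5 and H2az1 (10.4% of all genes). Before adjustment, 3 of 35 members had p under 0.05, against 12.8% of all genes. The median change was 0.02 over the histone genes and 0.00 over all genes. It was 0.02 over the 27 replication-dependent members and 0.01 over the 8 others.

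Histone probes that name several genes showed no change past the threshold. They numbered 32, with 2 pairs of identical values, and listed between 2 and 20 symbols each. Their changes lay between -0.05 and 0.05, and limma fitted over all probes called 0 of the 32, with 0 at an unadjusted p under 0.05, against 0.585% of all probes called. The H2A group had 2 such probes, at -0.05 and -0.04. The DKO and control values did not overlap in 6 of the 32, a share near the 18.8% of all genes. Replication-dependent histone genes are nearly identical in their coding sequence, so the single-gene probes may also take up RNA of other copies, and the changes of such genes are uncertain to that extent.

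**Figure D3:**
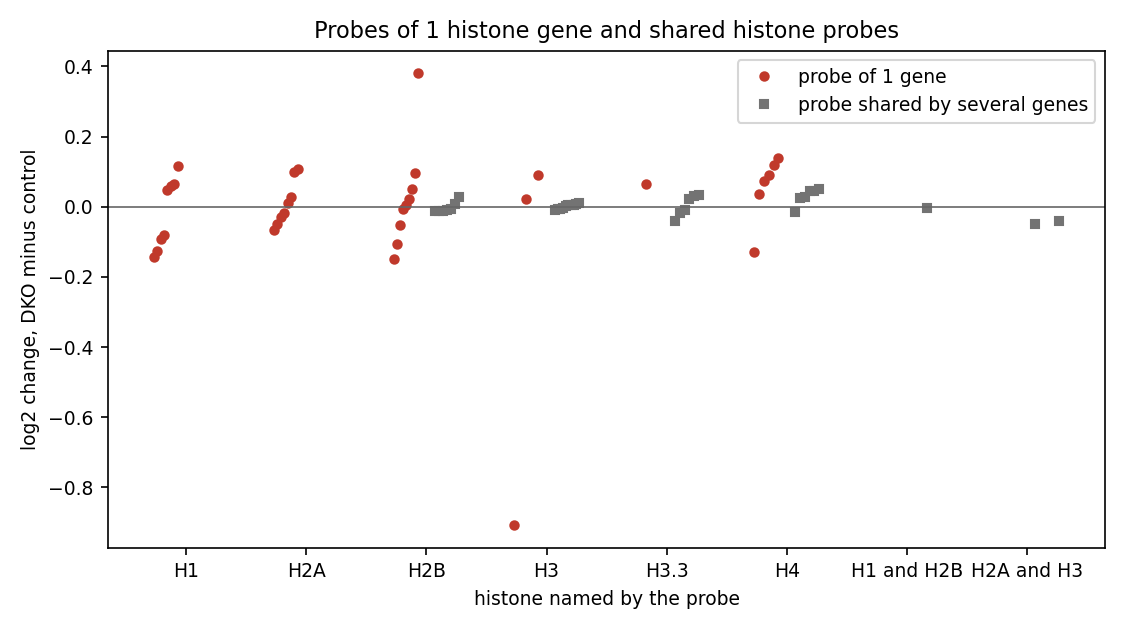
Log2 change, DKO minus control, of the probes used for the 35 histone genes (red) and of 32 histone probes that list several genes (grey), by histone. The grey points lie between -0.05 and 0.05, including the 10 H3 probes that list H3c15.

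The replication-dependent genes differed between arrays of the same group. Their median difference from the control mean was 0.08, -0.07 and 0.03 in DKO 1 to 3, and 0.05, -0.02 and -0.02 in control 1 to 3. DKO 1 was the highest DKO array in 20 of the 27 genes, against 4203 of all 19938 genes. DKO 2 was the lowest in 17 of 27 (63.0%), against 28.3% of all genes. All 4 replication-dependent H2A genes and 7 of 9 H2B genes had their lowest DKO value in DKO 2. Control 1 was the highest control array in 19 of 27 genes (70.4%), against 33.1% of all genes, and in 6 of 6 H4 genes. These counts are a description, since probes of near-identical genes share signal. Over the 34 S-phase genes the median difference was -0.06, -0.01 and 0.01 in DKO 1 to 3, so DKO 1 was not the highest there. In control 1 to 3 it was 0.00, 0.00 and 0.01. Over all genes the median difference was -0.03, 0.03 and -0.003 in DKO 1 to 3. DKO 1 was the lowest DKO array for 48.0% of all genes, so its low place in the S-phase genes is not particular to them. The DKO SD exceeded the control SD in 24 of 35 members (68.6%), against 67.8% of all genes.

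**Figure D4:**
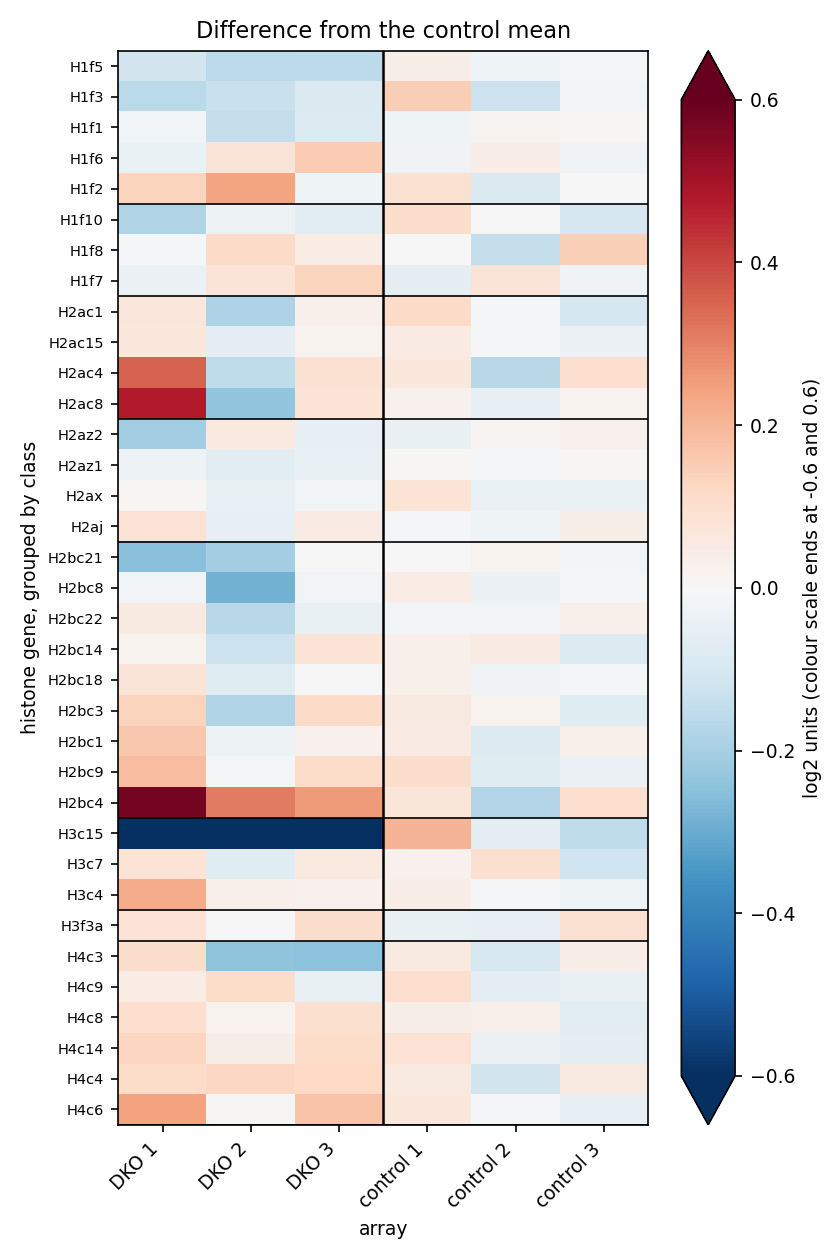
Difference of each of the 35 histone genes from its control mean on the 6 arrays, with DKO arrays left of control arrays and genes grouped by class. Colour gives log2 units and is cut at -0.6 and 0.6. H3c15 is low in all 3 DKO arrays, and most replication-dependent H2A and H2B genes are higher in DKO 1 than in DKO 2.

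The genes that make, process and carry histones were not called either. Of 19 genes for the transcription and 3′ end processing of histone mRNA, limma called 0, with 2 at an unadjusted p under 0.05. Over all genes limma called 2.41%, and 12.8% had an unadjusted p under 0.05. At that share a list of this length would hold few calls or none. The median change was -0.06, with 14 of the 19 below 0. DKO and control values did not overlap in 6 of the 19 (31.6%), against 18.8% of all genes. Cpsf2, a subunit of the complex that cleaves histone mRNA, read 9.61, 9.75 and 9.78 in DKO 1 to 3, against 10.02, 9.92 and 9.98 in control 1 to 3. All DKO values were lower (-0.26, SE 0.06, interval -0.40 to -0.12, adjusted p = 0.0735). It passed with an intensity trend (0.0232), with array weights (0.0178), without the dimmest 30% of genes (0.0441) and without DKO 2 (0.0459). Nfya, a subunit of the factor NF-Y that binds CCAAT, read 10.96, 10.96 and 11.12 in DKO, against 10.77, 10.83 and 10.86 in control. All DKO values were higher (0.19, SE 0.06, adjusted p = 0.191). Over the alternatives the adjusted p of Nfya lay between 0.00761, with array weights, and 0.530. Casp8ap2 stood at -0.12 (SE 0.05, adjusted p = 0.411), with all DKO values below all control values. The stem-loop binding gene Slbp stood at -0.10 (SE 0.06).

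Of 31 histone chaperones and exchange factors, limma called 0, with 1 at an unadjusted p under 0.05, and the median was -0.04. The shares over all genes were 2.41% called and 12.8% at an unadjusted p under 0.05. Asf1b, a chaperone of newly made H3 and H4, read 10.88, 10.98 and 11.04 in DKO, against 10.80, 10.79 and 10.81 in control. The groups did not overlap (0.16, SE 0.06, adjusted p = 0.228, and 0.0144, with array weights, to 0.515 over the alternatives). Hira, which deposits H3.3, stood at -0.13 (SE 0.07, adjusted p = 0.538). Of 34 S-phase genes, limma called 0, with 2 at an unadjusted p under 0.05, and the median was -0.01. In both cases those were Uhrf1, which maintains DNA methylation (-0.18, SE 0.07, adjusted p = 0.294), and the transcription factor E2f2 (-0.17, SE 0.05, adjusted p = 0.181). Over the alternatives the adjusted p of E2f2 lay between 0.0259, with array weights, and 0.513. Pola1, a subunit of DNA polymerase alpha, stood at 0.14 (adjusted p = 0.466, and 0.0413, with array weights, to 0.816 over the alternatives). The licensing factor Cdc6 stood at -0.12.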

How the data were processed

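Log2 expression values of 35556 probes on 6 arrays were deposited, and per the submitters' processing notes the authors used oligo, RMA and limma; versions and settings are not given in the sources used here. The log base is taken from RMA, and array medians lay between 7.87 and 7.89. RMA makes the arrays alike, so a change common to all genes cannot be seen. The number of arrays limits the precision.

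Probes were named from the platform annotation (21789 with 1 gene, 1621 with several, 12146 unnamed here). The brightest probe per gene left 19938 genes, and all 35 members matched RefSeq by Entrez identifier. Groups were compared by limma (version 3.58.1, R version 4.3.3, functions lmFit and eBayes, two-sided, without covariates), with Benjamini-Hochberg adjustment over all genes and a threshold of 0.05. The fit was tested on simulated data. Alternatives were a replicate block, an intensity trend, array weights, repeated quantile normalization, median centring, no genes of the dimmest 30%, the mean over a gene's probes, all probes fitted together, and leaving out each array.

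Members, lists and tests were chosen with earlier results of these data known. The named genes are members past the threshold or with non-overlapping groups and an unadjusted p under 0.05, in each class the 2 largest changes and the brightest and dimmest member, up to 4 genes of each other list by size of change, and the targeted genes. The markers and other members are named outside this rule, after their values were seen. The position of the members in the arrays' probe design was not used here.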

Additional observations from a re-analysis of the deposited data

How the results depend on the processing

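The count of 481 genes called became 725 with an intensity trend, 2003 with array weights and 148 with all probes fitted together, and ran between 197 and 811 when 1 array was left out (215, 197 and 215 on leaving out control 1, 2 and 3; 811 and 317 on leaving out DKO 2 and DKO 3). The count of 1 histone gene became 2 with an intensity trend (H3c15 and H2bc4), 2 with array weights (H3c15 and H1f5) and 0 with all probes fitted together, and ran between 0 and 1 when 1 array was left out, being 0 without control 1 or control 2. The count of 0 among the 50 genes of histone expression and chaperones became 1 with an intensity trend, 3 with array weights and 1 without the dimmest 30% of genes, and ran between 0 and 1 when 1 array was left out, being 1 without DKO 2. The count of 0 S-phase genes became 2 with array weights and was 0 when any 1 array was left out. The cause of these shifts was not tested. The median over the histone genes ran between -0.02 and 0.05, and each alternative moved it by less than the SD of 0.06 over the DKO arrays. This is a weak check, since that SD comes from the same arrays that were left out in turn. An intensity trend or a fit of all probes together leaves each change as it is, so neither can move the median. Over all genes, deviations from the group mean correlated at -0.0642, 0.0455 and 0.156 between DKO and control arrays of the same replicate number. Between arrays of unlike numbers they correlated at -0.193 to 0.142, so the numbers were not taken to pair the samples. The replicate block gave 406 genes, 1 histone gene, 0 genes of histone expression and 0 S-phase genes. Over 484 refits of single histone genes, 454 kept their direction and their side of the threshold, 3 lost the call, 2 gained it and 25 changed sign, none of them called. With 1 array left out, the changes of the genes that changed sign ran from -0.0219 to 0.120 for H1f8, -0.0828 to 0.0487 for H2ac1, -0.0169 to 0.0431 for H2ac15, -0.0287 to 0.223 for H2ac4, -0.0781 to 0.279 for H2ac8, -0.128 to 0.00540 for H2az2, -0.0376 to 0.0254 for H2ax, -0.00201 to 0.0682 for H2aj, -0.106 to 0.00387 for H2bc22, -0.0526 to 0.0520 for H2bc14, -0.0340 to 0.0410 for H2bc18, -0.0330 to 0.125 for H2bc3, -0.00229 to 0.0937 for H2bc1 and -0.0381 to 0.0687 for H3c7. With array weights the changes that turned sign were 0.0197 for H2ac1, 0.0675 for H2bc14 and -0.0301 for H4c9. The smooth muscle marker count of 4 was 1 with the replicate block and 0 with all probes fitted together, and Hdac1 had an adjusted p of 0.0507 with the replicate block, both refits added after the data were seen. The files hold no detection calls, so members with dim probes, 6 of 35 among the dimmest 30%, and H3c15 in DKO, may be measured near background.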

Other observations

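Histone genes whose symbols lie outside the rule, gathered after the values were seen, numbered 14, and limma called 0 of them, with 0 at an unadjusted p under 0.05. Over all genes limma called 2.41%, with 12.8% at an unadjusted p under 0.05, so a list this short would hold few calls or none. The 14 include the macroH2A genes, whose proteins carry a large domain beside the histone fold. Macroh2a1 stood at -0.08 (SE 0.06, adjusted p = 0.668), with all DKO values below all control values, as in 10.4% of all genes. Macroh2a2 stood at -0.04 (SE 0.07). Cenpa, the H3 variant of centromeres, stood at -0.04 (SE 0.07), and H2bu2, an H2B gene, had the largest value at -0.17 (SE 0.09, adjusted p = 0.513). The histone genes known from germ cells among the members, H1f6, H1f7, H1f8, H2ac1 and H2bc1, had changes between -0.03 and 0.06. Their intervals stayed within 0.32 log2 units of no change in 5 of 5, against 17436 of all 19938 genes. H1f6 and H1f8 were among the dimmest 30% of genes and may be measured near background.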
